A study of Caenorhabditis elegans with 2 samples.

Results

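The genes described here are the 261 microRNA genes of Caenorhabditis elegans, taken as every gene of biotype miRNA on the 6 nuclear chromosomes in the WBcel235 annotation, out of 46890 nuclear genes. All 261 matched a RefSeq gene by identifier, and 260 of them had an annotated mature product. Binding of the C17E4.6 protein near these genes was read from peak lists made by chromatin immunoprecipitation and sequencing in whole young adults of strain RW12293, collected at 62 hours. A CRISPR insertion in this strain fuses TY1, EGFP and 3xFLAG tags to C17E4.6 at its own locus, and an antibody against GFP was used for the precipitation. There was 1 group with 2 biological replicates, both of this strain, and no control precipitation or other genotype was analysed here. A microRNA gene was called marked when the summit of a peak lay in the window that runs from 500 bp before to 200 bp after its annotated 5' end. In whole animals, a site bound in few cells and a site bound weakly in many cannot be told apart.

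MicroRNA genes are transcribed by RNA polymerase II into primary transcripts, from which a hairpin is cut by Drosha and its partner Pasha, and the mature RNA is released from the hairpin by Dicer. An Argonaute protein then carries the mature RNA to messenger RNAs that pair with its seed, bases 2 to 8, and these are repressed. In C. elegans, lin-4 and let-7 are known for timing larval development, and the mir-35 and mir-51 families are known to be required for the development of the embryo. C17E4.6 is a relative of VPS72, a protein that in other organisms takes part in putting the histone variant H2A.Z into chromatin, where H2A.Z is found at many promoters. The annotated 5' end of most microRNA genes is the end of the hairpin and not the start of the primary transcript, so a window around it can miss a promoter that lies further upstream.

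The marked genes that share no peak with a coding gene belong to a small number of families, so their mature sequences are shown to make the shared seeds visible. Sequences are from RefSeq, assembly WBcel235, written 5' to 3' with bases 2 to 8 in capitals. The mir-35 and mir-51 families are given for the members marked in the combined thresholded list, and mir-58.1, mir-80 and mir-229 were marked in the authors' conservative list. The mature RNAs of lin-4 and let-7, which were not marked, follow for comparison.
mir-35: uCACCGGGuggaaacuagcagu
mir-36: uCACCGGGugaaaauucgcaug
mir-37: uCACCGGGugaacacuugcagu
mir-51: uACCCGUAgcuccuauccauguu
mir-54: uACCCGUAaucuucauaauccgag
mir-55: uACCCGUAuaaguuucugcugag
mir-56: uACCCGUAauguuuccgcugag
mir-58.1: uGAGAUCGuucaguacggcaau
mir-80: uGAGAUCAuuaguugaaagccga
mir-229: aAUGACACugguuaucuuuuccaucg
lin-4: uCCCUGAGaccucaaguguga
let-7: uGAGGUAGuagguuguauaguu
The seed CACCGGG of mir-35 was carried by all 8 listed members of its family, and the seed ACCCGUA of mir-51 by all 6 of its family. In the mir-51 family that seed lies on the 5' arm of the hairpin in mir-51 and on the 3' arm in mir-54, mir-55 and mir-56. The seeds of mir-58.1 and mir-80 are the same in all but their last base. The seed AUGACAC of mir-229 is shared with mir-63, mir-64, mir-65 and mir-66.

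The DNA under 6 of the summits is shown because these peaks, the highest in each gene's window, mark microRNA genes and no coding gene. Except at mir-229, the same summits also mark other noncoding RNA genes. F09A5.11 starts 16 bp from its summit, against 161 bp for mir-54, and Y62F5A.16 starts 162 bp away, against 243 bp for mir-35. Y67D8A.6 starts 163 bp away, against 255 bp for mir-58.1. At mir-51 (18 bp, against 89 bp) and mir-80 (13 bp, against 86 bp) the microRNA starts nearer. Each line gives the summit with 60 bases on either side from RefSeq, WBcel235, on the strand of the microRNA, with the base under the summit in capitals. At mir-229 the capitals mark a match to the motif CTGCGTCT of the transcription factor EOR-1, which begins at the base under the summit. The windows are chrII:11537305-11537425 on the plus strand for mir-35, chrX:13145195-13145315 on the minus strand for mir-54, chrIV:11026070-11026190 on the minus strand for mir-51, chrIV:3232939-3233059 on the plus strand for mir-58.1, chrIII:2172184-2172304 on the plus strand for mir-229 and chrIII:8865294-8865414 on the minus strand for mir-80.
mir-35: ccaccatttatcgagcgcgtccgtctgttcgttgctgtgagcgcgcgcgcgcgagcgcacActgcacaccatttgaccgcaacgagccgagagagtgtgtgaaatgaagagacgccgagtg
mir-54: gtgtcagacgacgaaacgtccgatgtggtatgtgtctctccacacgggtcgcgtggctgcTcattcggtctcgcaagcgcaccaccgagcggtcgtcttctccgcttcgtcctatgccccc
mir-51: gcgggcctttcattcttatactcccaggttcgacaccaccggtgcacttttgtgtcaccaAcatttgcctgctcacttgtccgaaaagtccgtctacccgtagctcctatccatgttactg
mir-58.1: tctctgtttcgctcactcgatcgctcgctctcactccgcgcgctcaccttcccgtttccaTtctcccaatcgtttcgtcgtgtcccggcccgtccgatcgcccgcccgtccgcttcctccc
mir-229: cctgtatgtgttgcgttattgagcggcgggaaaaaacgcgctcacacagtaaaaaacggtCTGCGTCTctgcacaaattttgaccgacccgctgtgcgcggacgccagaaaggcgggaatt
mir-80: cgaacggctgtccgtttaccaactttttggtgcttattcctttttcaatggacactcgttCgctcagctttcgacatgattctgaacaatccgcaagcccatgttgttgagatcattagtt
The windows at mir-58.1, mir-54 and mir-35 had GC contents of 64.5%, 62.0% and 60.3%, which were higher than those of 97.8%, 96.6% and 95.4% of all 1017 summits of the combined list. The GC content was 53.7% at mir-229, 51.2% at mir-51 and 43.8% at mir-80, against a median of 47.1% and quartiles of 40.5% and 52.9% over the 1017 summits. The window at mir-51 runs into the hairpin and holds its mature sequence. The window at mir-80 also runs into its hairpin, where its summit lies, and ends inside the mature sequence. The motifs CTCCGCCC, known from upstream of worm microRNA genes, TTCGCGC and TTGGCGC of E2F, and TGATAAG of GATA factors, searched on both strands, had no match in these 6 windows. Of the 1017 summit windows of the same length, 6.78% held CTGCGTCT, 1.77% held CTCCGCCC, 7.67% held TTCGCGC, 5.01% held TTGGCGC and 0.983% held TGATAAG.

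In the combined thresholded list of 1017 peaks, which the authors made from both replicates, 10 of 261 microRNA genes were marked. This is 3.83% (95% Wilson interval 2.09 to 6.91), beside a background of 2.79% of 19973 coding genes and 2.1% of all nuclear genes. The interval contains both background shares, so with this list a difference from coding genes was not detectable. The 10 genes are mir-35, mir-36, mir-37, mir-51, mir-54, mir-55, mir-56, mir-4932, mir-4934 and mir-5549, and they had 7 peaks in their windows, of which mir-51 had 2. Counted as loci, with members on the same strand and less than 1 kb apart taken as 1, 6 of 227 were marked, or 2.64% (1.22 to 5.65). The shares of 3 other classes of small RNA genes were higher. They were 14.4% of 612 tRNA genes (11.8 to 17.4), 18.5% of 346 snoRNA genes (14.8 to 22.9) and 19.4% of 129 snRNA genes (13.5 to 27.0). These 3 intervals lie above that of the microRNA genes. Other noncoding classes had lower shares. They were 0.0846% of 15363 piRNA genes, 0.515% of 194 lincRNA genes and 2.63% of 7764 genes of biotype ncRNA, the last inside the microRNA interval. The conservative thresholded list of 955 peaks marked the same 10 genes and added mir-58.1, mir-80 and mir-229. Its 13 genes make 4.98% (2.93 to 8.33), beside 2.66% of coding genes and 2.05% of all genes, and here the interval lies above both background shares. The all-gene share is lowered by the 15363 piRNA genes that it includes, of which 0.0911% were marked in this list. The 9 loci of the conservative list make 3.96% of 227 (2.10 to 7.36), and this interval by locus contains the coding share of 2.66%. Intervals cover counting error only, and genes that share a peak are not independent.

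**Figure D1:**
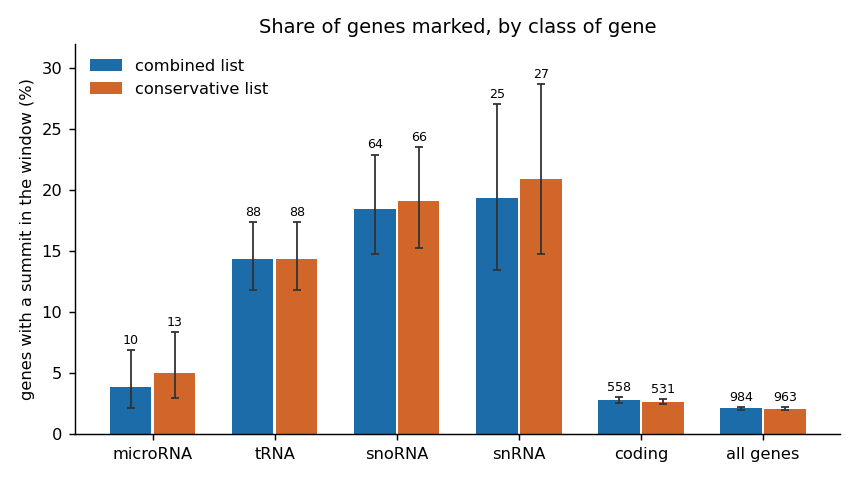
Share of genes (%) with a peak summit in the window, for microRNA genes on the left and tRNA, snoRNA, snRNA, coding and all nuclear genes to the right, in the combined and the conservative thresholded lists. Bars give the share, error bars the 95% Wilson interval and the counts over them the number of genes. The microRNA genes, at 3.83% and 4.98%, stand below the tRNA, snoRNA and snRNA genes and above the coding genes. The coding share lies within the microRNA interval in the combined list and under it in the conservative list. Classes with lower shares, such as piRNA genes, are not drawn.

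The mir-35 cluster carried the peak that passed the threshold in both replicates and marked no coding gene. Its 7 hairpins, mir-35 to mir-41, lie within 797 bp on the plus strand of chromosome II, from 11537608 to 11538404, inside an intron of Y62F5A.9, which runs on the opposite strand. The combined peak spans 11537223 to 11537506, with its summit at 11537365 and a signal of 109 (rank 230 of 1017). The summit lay 243 bp upstream of mir-35, 348 bp upstream of mir-36 and 468 bp upstream of mir-37, and therefore inside their windows. It lay 568, 724, 819 and 943 bp upstream of mir-38, mir-39, mir-40 and mir-41, outside theirs. Replicate 1 had a summit 263 bp upstream of mir-35 scoring 1000, its signal being 69.5, and replicate 2 had one 201 bp upstream that scored 989, with 41.3 as its signal. The score follows the irreproducible discovery rate (IDR) and is capped at 1000, 830 corresponds to an IDR of 0.01, and the signal is the authors' own value on a scale that is not stated to be common to the lists. Both replicates were above 830, and the peak stands in both thresholded lists. The 4 distal hairpins had their own best scores of 72 (mir-38) and 157 (mir-39, mir-40 and mir-41, which share 1 summit) in the combined ranked list. Of the family, mir-42 lies elsewhere on chromosome II with mir-43 and mir-44, and its best score was 28, the lowest value that this list holds.

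The mir-51 family lies at separate loci, and 4 of its 6 members were marked. The hairpins mir-54, mir-55 and mir-56 form a cluster of 404 bp on the minus strand of chromosome X, from 13144691 to 13145094, in an intron of F09A5.3 on the opposite strand. Their shared peak spans 13145113 to 13145396 with its summit at 13145255, which lay 161 bp upstream of mir-54, 331 bp upstream of mir-55 and 468 bp upstream of mir-56. It had a signal of 65.8 and ranked 771 of 1017. At mir-54, replicate 1 gave a score of 431 with a signal of 34.3 and replicate 2 a score of 852 with a signal of 36.3, with summits 50 bp apart. The signals were close and the scores were not, and replicate 1 missed the threshold of 830. In replicate 2 the summit lay 511 bp upstream of mir-56, just past the edge of the window, so mir-56 was marked in neither replicate's own thresholded list.

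The gene mir-51 lies alone on the minus strand of chromosome IV, from 11026013 to 11026112. Its summit, at 11026130, lay 18 bp upstream, the smallest distance to a microRNA 5' end in the combined thresholded list, and had a score of 939 (signal 75.9). Replicate 1 had a score of 772 and a signal of 33.4 with the summit 47 bp downstream of the 5' end, and replicate 2 had 982 and 44.9 with the summit 61 bp upstream. A further combined peak with the same score but a signal of only 14.01 had its summit at 11026336 in the same window. The nearby mir-53, at 11027593 to 11027691, had a best score of 82, and mir-52, at 14034008 to 14034107, had 350. Both had lower scores than the 4 marked members, and mir-53 had no summit in its window in replicate 1.

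**Figure D2:**
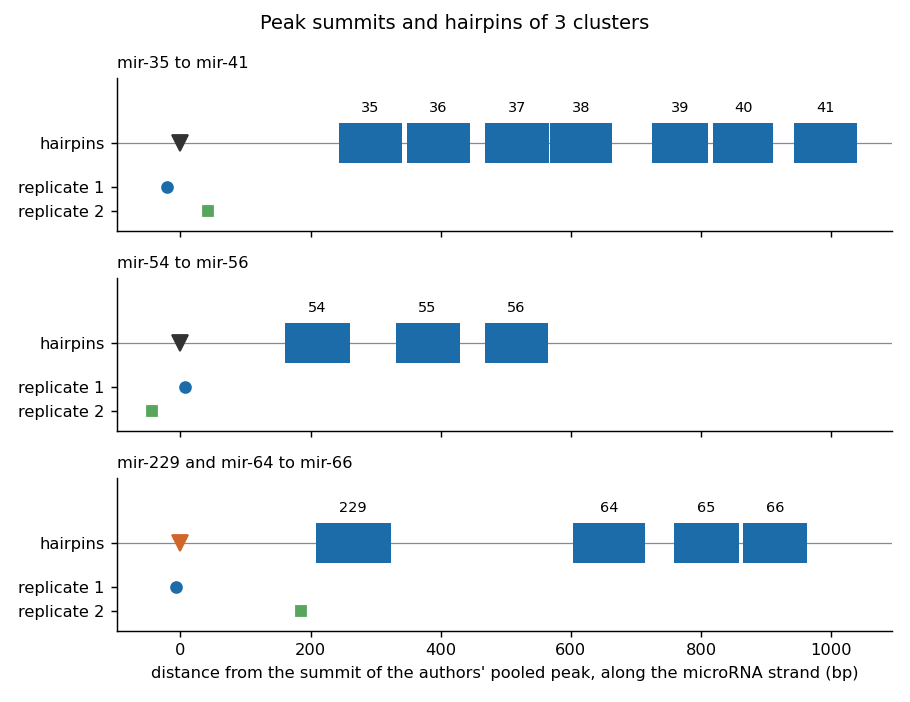
Position of the hairpins (boxes, labelled by their mir number) and of the peak summits at 3 clusters, as distance in bp from the summit of the authors' pooled peak along the microRNA strand. Black triangles are combined summits, the orange triangle is a conservative summit, and circles and squares are the summits of replicates 1 and 2; in the mir-35 and mir-54 clusters both replicates' summits lie upstream of the first hairpin, 62 and 50 bp apart, and at mir-229 they lie 191 bp apart.

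The other 3 marked microRNA genes each share their peak with coding genes whose 5' ends lie within reach of the same summit. The gene mir-4932 lies on chromosome I from 9512307 to 9512416, and its peak had a signal of 125 and a rank of 167, the highest signal at any microRNA gene in the combined thresholded list. The summit lay 112 bp downstream of the 5' end of mir-4932, but 33 bp upstream of klp-16, which encodes a spindle kinesin, and 183 bp upstream of smn-1, the homologue of the human survival motor neuron gene. Scores there were 1000 in replicate 1 and 998 in replicate 2, with signals of 71.5 and 50.1. The gene mir-4934, on chromosome IV from 9825312 to 9825421, shares a peak with mtr-4, which encodes an RNA helicase that works with the nuclear exosome. That summit lay 84 bp upstream of mir-4934 and 189 bp upstream of mtr-4, with a signal of 65.7, and the replicates' scores were 1000 and 243. The gene mir-5549, on chromosome III from 6971976 to 6972085, shares its peak with rfc-4, a replication factor C gene, at 75 bp, and with eef-1A.1, which encodes a translation elongation factor, at 466 bp. Its own distance to the summit was 93 bp, with a signal of 66.1 and scores of 684 in replicate 1 and 378 in replicate 2, both below 830. In all, 3 of the 7 combined peaks at microRNA genes also marked a coding gene, and with those peaks left out 7 of 261 microRNA genes (2.68%) were marked.

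Further loci were marked in the conservative list alone or in 1 replicate. The gene mir-58.1, known as an abundant microRNA of the bantam type, lies on chromosome IV from 3233254 to 3233350 in an intron of Y67D8A.2. Its conservative summit lay 255 bp upstream with a score of 933 and a signal of 54.2, while its score in the combined ranked list was 691. Replicate 1 gave 879, past the threshold, and replicate 2 gave 241, with summits 114 bp apart. The gene mir-229 heads a cluster with mir-64, mir-65 and mir-66 on chromosome III, in an intron of gcn-1, and its summit lay 208 bp upstream. It scored 895 in the conservative list, 717 in the combined ranked list, 608 in replicate 1 and 501 in replicate 2. The gene mir-80, named here after its values were seen, had its conservative summit 13 bp downstream of the 5' end with a score of 850, against 444 in the combined ranked list, 727 in replicate 1 and 82 in replicate 2. No coding gene was marked by these 3 peaks. All 3 had lower signals, from 46.1 to 56.8, than the highest combined peak at each of the 6 loci above, which ran from 65.7 to 125. The second peak at mir-51, at 14.01, was lower still.

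**Figure D3:**
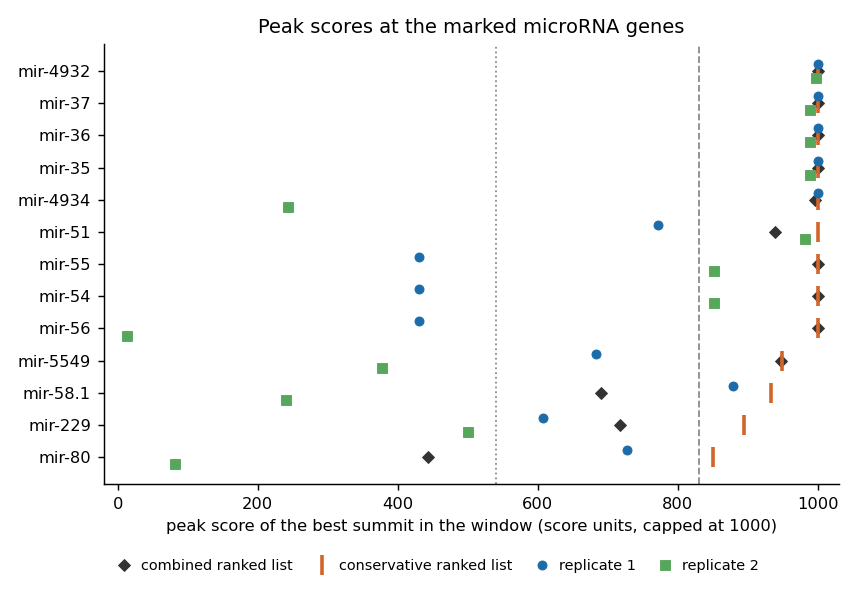
Peak score of the best summit in the window (score units, capped at 1000) at the 13 microRNA genes marked in any thresholded list, for the combined and conservative ranked lists and each replicate. The dashed line is a score of 830 and the dotted line a score of 540; mir-35, mir-36, mir-37 and mir-4932 lie above 830 in both replicates and the other 9 in at most 1.

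Each replicate's own thresholded list marked fewer microRNA genes than the lists made from both. Replicate 1 marked 6 genes (2.30%, 1.06 to 4.92) at 4 loci, namely mir-35, mir-36, mir-37, mir-58.1, mir-4932 and mir-4934, beside 1.72% of coding genes and 1.3% of all genes. Replicate 2 marked 7 (2.68%, 1.31 to 5.43) at 4 loci, namely mir-35, mir-36, mir-37, mir-51, mir-54, mir-55 and mir-4932, beside 1.34% of coding genes and 1.02% of all genes. The microRNA share lay above the coding share in both replicates, and the coding share lay within the microRNA interval in each. The replicates agreed on mir-35, mir-36, mir-37 and mir-4932, which are 2 loci. Both mir-56 and mir-5549 were marked in the combined list and in neither replicate's own.

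Below the threshold, 10 microRNA genes had a combined ranked score of at least 540, an IDR of 0.05, but under 830. They were mir-4936 (769), mir-250 and mir-61 (718, 1 shared peak), mir-229, mir-58.1, mir-242 (652), mir-356.1 (607), mir-5594 (600), mir-8194 (591) and mir-8196.1 (569). The gene mir-61 is known to act downstream of Notch in vulval precursor cells, and its shared summit, 52 bp upstream of it and 193 bp upstream of mir-250, had scores of 511 in replicate 1 and 36 in replicate 2 at mir-61. Just outside that limit stood mir-4812, at 537. With a score of 540 or more, 20 of 261 microRNA genes (7.66%, 5.01 to 11.5) were counted, beside 4.32% of coding genes and 3.5% of all genes. Counted by gene, the interval lies above both background shares. The all-gene share is lowered by its 15363 piRNA genes, of which 0.273% had such a score. Of tRNA, snoRNA and snRNA genes 30.9%, 24.3% and 25.6% had one, more than of microRNA genes. These 20 genes lie at 15 of 227 loci, and those that share a peak are not independent. No interval by locus was computed at this score, so an excess of loci over coding genes was not shown. In the band from 540 to under 830 stood 3.83% of microRNA genes and 1.52% of coding genes, and in the band from 830 stood 3.83% of microRNA genes and 2.79% of coding genes.

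**Figure D4:**
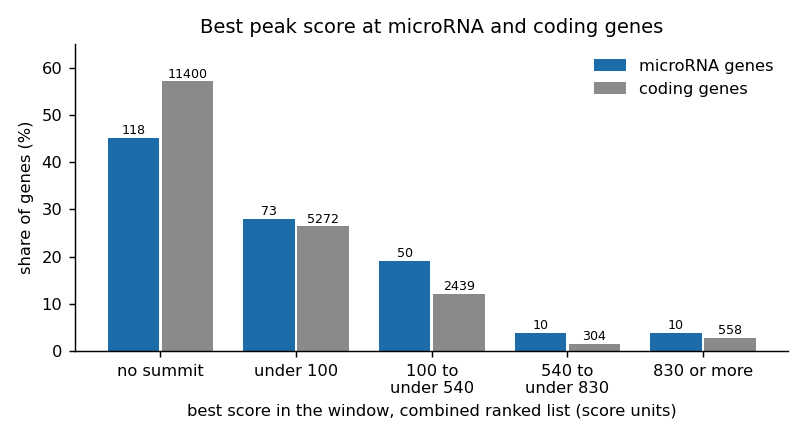
Share of genes (%) by the best score in the window in the combined ranked list, microRNA genes on the left of each pair and coding genes on the right, with the number of genes above each bar. Of the microRNA genes 45.2% had no summit in the window, against 57.1% of the coding genes, and in each of the 4 bands with a summit the microRNA share is the higher one.

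In the ranked list as a whole, which runs down to weak peaks, 143 of 261 microRNA genes (54.8%, 48.7 to 60.7) had a summit in the window, beside 42.9% of coding genes and 34.3% of all genes. The share was higher for tRNA genes (84.8%), snoRNA genes (71.7%) and snRNA genes (69.8%). The median best score of the microRNA genes with a summit was 97 (quartiles 28 and 246.5), against 75 (28 and 169) for coding genes and 74 for all genes. Summits stood upstream of the 5' end at 108 of these 143 microRNA genes (75.5%), against 68.8% of coding genes, at a median distance of 162 bp upstream, against 125 bp. This did not hold in each replicate: in replicate 1 the upstream share was 73.7%, against 69.9% of coding genes, at 159 bp against 133 bp, and in replicate 2 it was 69.6%, against 69.8% of coding genes, at 86 bp against 136 bp. In replicate 1 the median score was 67.5 over 118 microRNA genes, against 48 for coding genes, and in replicate 2 it was 40 over 125, against 36. A summit in the ranked lists of both replicates was found at 80 microRNA genes (30.7%, 25.4 to 36.5), beside 18.6% of coding genes and 14.6% of all genes. The share with a summit in both was higher for tRNA genes (62.4%), snoRNA genes (49.7%) and snRNA genes (46.5%). In 40 of the 80 microRNA genes the summits lay within 100 bp of each other. Across the 36 separate peak pairs at these 40 genes, Spearman's rho of the signal between replicates was 0.43 while on the log2 scale Pearson's r was 0.48. Over the 1975 such pairs at coding genes rho was 0.60 and r was 0.71. These are descriptions across peaks of the same pair of libraries.

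The families differed in how many members were marked. They were listed as known in C. elegans and not by seed alone, so in the mir-58 family 5 of 8 members carry the seed GAGAUCA, in the let-7 family 5 of the 6 with a sequence carry GAGGUAG, and mir-63 is not counted with mir-64 although it shares its seed. The 7 families listed hold 39 genes, of which 7 (17.9%) were marked in the combined list and 10 (25.6%) in the conservative list, against 3 of 222 other microRNA genes (1.35%) in both. The 7 genes lie at 3 loci with 4 peaks and the 10 at 6 loci with 6 peaks, since members of a family can lie in 1 cluster, and the families were listed with earlier results of these data known. The mir-51 family had 4 of 6 members marked with a median best score of 969.5, and the mir-35 family 3 of 8 with a median of 157. In the mir-58 family mir-58.1 and mir-80 were marked in the conservative list, and mir-81 and mir-82 had no summit in the window in the combined ranked list. Of the mir-64 family mir-229 was marked there, and mir-65 and mir-66 had no combined summit.

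None of the 7 members of the let-7 family or the 2 of the lin-4 family was marked in any thresholded list. The gene let-7, whose annotation covers its primary transcript, had no summit in its window in any list, and neither had mir-241 or mir-237. Within the let-7 family mir-48 scored 55 in the combined ranked list and 40 in replicate 1, and had no summit in replicate 2. The gene mir-84 had no combined summit and scored 40 in replicate 2. The gene lin-4 scored 114 in the combined ranked list, 123 in replicate 1 and 14 in replicate 2, with its combined summit 315 bp upstream.

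Other well-known microRNA genes were not marked either. The genes mir-71, known for its part in lifespan, and mir-34 scored 112 and 174 in the combined ranked list. The gene mir-124, known from sensory neurons, scored 90, mir-60 scored 62, and lsy-6, which sets the asymmetry of a pair of taste neurons, scored 28. The muscle gene mir-1 and mir-228 had no combined summit, although replicate 1 gave them scores of 54 and 349. All of these values lie below 540, and 42.9% of coding genes have a summit of any score in this list.

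**Figure D5:**
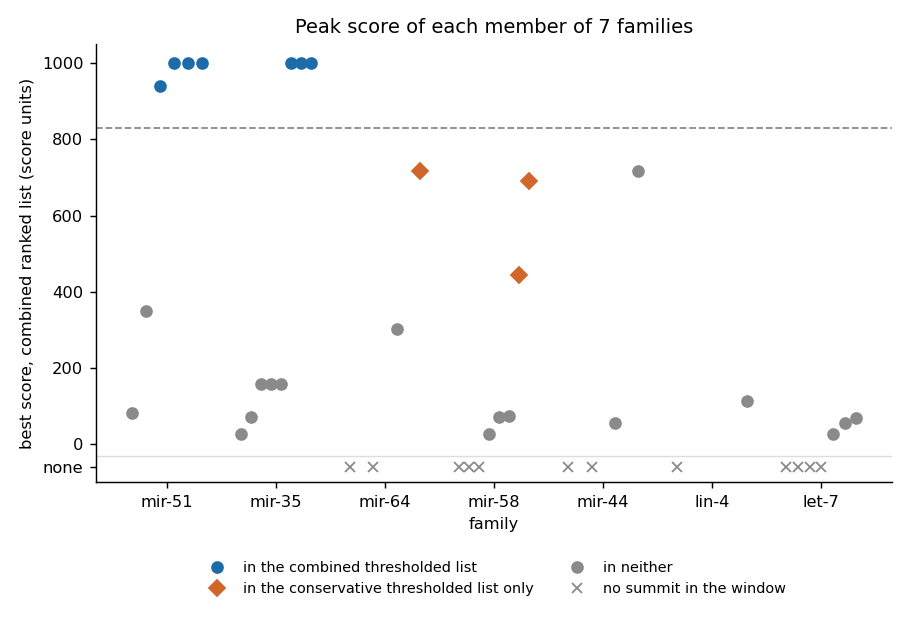
Best score in the combined ranked list (score units) of each listed member of 7 families, with members lacking a summit in the window drawn at the foot of the plot and the dashed line at 830. Blue circles were marked in the combined thresholded list and orange diamonds in the conservative list but not the combined one; marked members stand in the mir-51, mir-35, mir-64 and mir-58 families, and none in the mir-44, lin-4 and let-7 families.

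Marked microRNA genes were spread over 5 chromosomes. On X, 3 of 74 microRNA genes (4.05%) were marked, all by the peak at mir-54, against 21 of 2731 coding genes (0.769%). On the autosomes 7 of 187 microRNA genes (3.74%) were marked, against 537 of 17242 coding genes (3.11%). None of the 28 microRNA genes on V was marked, and 76 of 4994 coding genes there (1.52%) were. Of the 33 microRNA genes that lie inside a coding gene on its opposite strand, 6 (18.2%) were marked, all at the mir-35 and mir-54 clusters. Of the 152 outside coding genes 4 (2.63%) were marked, and of the 76 inside a coding gene on the same strand none was in the combined list and 2 were in the conservative list. Of the 52 members in clusters of 2 or more, 6 (11.5%) were marked, and of the 209 single members 4 (1.91%) were. Of the 18 clusters 2 held a marked member.

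A list of genes linked to microRNAs was looked at in the same window. It holds processing, Argonaute and effector genes, and broader entries such as lin-14, lin-28, lin-41, hbl-1, pab-1 and ran-1. Of 34 listed genes 32 were found in the annotation by name, and 5 of these (15.6%, 6.86 to 31.8) were marked, beside 2.79% of coding genes. The list was made with earlier results of these data known. The marked genes were ran-1 (signal 135), which encodes the GTPase of nuclear transport, vig-1 (134), which encodes a component of the silencing complex, hrpk-1 (115), an hnRNP K gene known to support microRNA activity, ntl-2 (92.1), a subunit gene of the CCR4-NOT deadenylase, and xrn-2 (91.7), which encodes the exonuclease that degrades mature microRNAs in worms. Both ran-1 and vig-1 scored 1000 in each replicate. The gene xrn-2 scored 1000 in replicate 1 and 207 in replicate 2, ntl-2 scored 1000 and 593, and hrpk-1 scored 773 and 1000. The summit lay 59 bp upstream of xrn-2 and between 380 and 420 bp upstream of the other 4. None of the genes for the core steps was marked: drsh-1 (Drosha) scored 617 in the combined ranked list, pash-1 (Pasha) 299 and dcr-1 (Dicer) 162. The Argonaute genes alg-1 and alg-2 had no combined summit in the window.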

How the data were processed

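Chromatin immunoprecipitation and sequencing of the tagged C17E4.6 protein gave 8 peak lists, on assembly ce11 per the labels. Names of the aligner and the caller were not given in the sources used here. The deposited score of each peak follows the deposited −log10 of its irreproducible discovery rate, capped at 1000. The deposited −log10 q served only to break ties in choosing the 508 combined peaks of highest signal. The signal of each peak is the authors' own value. The authors pooled both replicates for the combined and conservative lists. The lists hold no read counts, so depth is unknown. Of the values per replicate, 16 columns named no sample and stayed unused.

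Genes came from Ensembl release 115 and sequences from RefSeq, on the same assembly. A gene was marked by a summit from 500 bp before to 200 bp after its 5' end. Where several summits lay in a window, the one of highest score and then signal was taken. Wilson intervals (95%, SciPy 1.17.1, pandas 2.3.3) cover counting error only, and the design, with 1 group of 2 replicates, allows no test between conditions. The marking rule was tested on simulated summits.

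The members and lists were chosen with earlier results of these data known. Genes named are those marked in the combined list or in either replicate's own, the 10 of highest combined ranked score after them, the members of the mir-35 to mir-41 and mir-51 to mir-56 groups, a list of well-known microRNA genes and the marked pathway genes. Others are named where a count or family needs them, after their values were seen. The genes mir-51 to mir-56 are not 1 cluster in this annotation. Alternatives were the conservative list, each replicate's list, other scores and windows, overlap in place of summits, 1 gene per peak and other cluster rules.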

Additional observations from a re-analysis of the deposited data

How the results depend on the processing

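The share of microRNA genes marked, 3.83% at 6 loci, stayed inside its own interval with the conservative list, with a combined ranked score of 830 or more, with overlap of peak and window (4.21%, against 3.14% of coding genes), with the wide window, and among genes outside coding genes or with a mir, let, lin or lsy name. Without replicate 1 it was 2.68% and without replicate 2 it was 2.30%, with 4 loci in each. Counting only peaks at no coding gene, which was added after the data were seen, gave 2.68%. It was 1.53% at 2 loci among the 508 combined peaks of highest signal, where coding genes had 1.68%, and 7.66% at 15 loci with a score of 540 or more. With the narrow window (250 bp before to 100 bp after) it was 1.92%, against 1.68% of coding genes. With the far window (2000 bp before) it was 8.43% at 14 loci, against 4.67% of coding genes, and with the wide window (1000 bp before, 500 bp after) it was 6.90% at 10 loci, against 3.74% of coding genes. Counted by gene, the microRNA interval contained the coding share in the main setting. It lay above that share with the conservative list (2.93 to 8.33, against 2.66%), the wide window (4.41 to 10.6) and the far window (5.63 to 12.4). Genes that share a peak are not independent in these intervals. By locus, the interval of the conservative list (2.10 to 7.36) contained the 2.66%. Intervals by locus were not computed for the wide and far windows. When each peak marked the gene of any biotype with the nearest 5' end, 2 microRNA genes, 0.766%, remained at 2 loci, mir-51 and mir-4934, because noncoding RNA genes or coding genes start closer to the other summits. Joining members up to 10 kb apart, or on either strand (chosen after seeing the data), left 6 loci. The share with any summit in the combined ranked list, 54.8%, was 33.7%, 75.1% and 80.5% with the narrow, wide and far windows, which differ in length. The share with a summit in both replicates, 30.7%, was 13.8%, 49.8% and 54.4% with these windows, 15.3% with summits within 100 bp and 1.92% with a score of 540 or more in both. The median best score, 97, was 77.5 with the narrow window and 103.5 and 105.5 with the wide and far windows. No paired analysis was possible because there was 1 group. With no read counts, the depth that limits weak peaks is unknown.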

Other observations

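Several microRNA genes lie near a strong peak that their window does not reach. The nearest summit of the combined thresholded list lay within 2 kb of 27 of 261 microRNA genes (10.3%), against 6.07% of coding genes, and within 10 kb of 59 (22.6%), against 17.9%. These counts include the 10 marked microRNA genes and the 558 marked coding genes, and genes that share a summit are counted separately. A summit with a signal of 107 lay 353 bp downstream of the 5' end of mir-45, which carries the same seed as mir-44 and mir-61. Summits lay upstream of mir-243 (805 bp), mir-354 (876 bp), mir-2221 (1214 bp), mir-4924 (1531 bp), mir-72 (1635 bp), mir-2216 (1773 bp), mir-235 (1869 bp) and mir-34 (1947 bp). Their signals ran from 61.1 at mir-34 to 155 at mir-2216. These genes were chosen after their values were seen, and whether any of these peaks belongs to a microRNA promoter was not tested.

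In windows of 300 bp, from 250 bp before to 50 bp after the 5' end, CTCCGCCC on either strand was found at 20 of 261 microRNA genes (7.66%) and at 2.40% of coding genes. The 20 include let-7, lin-4, mir-35, mir-61, mir-80 and mir-124, of which mir-35 was marked in the combined list and mir-80 in the conservative list. The E2F form TTGGCGC was found at 17 microRNA genes (6.51%) and at 2.17% of coding genes, while TTCGCGC was found at 0.383% of microRNA genes and 1.92% of coding genes. Of the 17, mir-36, mir-37, mir-56 and mir-4934 were marked, and the rest, mir-38 and mir-228 among them, were not. The EOR-1 motif CTGCGTCT was found at 3.07% of microRNA genes and 3.54% of coding genes, and TGATAAG at 6.90% of microRNA genes and 9.19% of coding genes. Windows of clustered members overlap, and a match is a description of the letters alone.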
